A study of Mus musculus with 9 samples.

Results

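*Col1a1*, *Col1a2*, *Col3a1*, *Thy1* and *Mmp2* are 5 genes that fibroblasts express, and they were taken by symbol from the table of gene levels, which holds 15074 genes. All 5 are listed in the table and all 5 had a level of at least 1 FPKM in at least 1 library. FPKM is a count of reads or fragments scaled to the length of the transcript and the size of the library, so levels of different genes can be compared on this scale. The genes were read as a measure of RNA from feeder fibroblasts, since the embryonic stem cells (ESCs) of the study were grown on a layer of mouse embryonic fibroblasts (MEFs) whose division had been blocked with mitomycin C. Polyadenylated RNA was sequenced from 3 mouse ESC lines at days 0, 2 and 4 of differentiation, with 1 library for each of the 9 conditions. WT cells were J1 ESCs, 1KO cells were *Dnmt1*-/- ESCs derived from J1, and 1KO+1CI cells were 1KO ESCs with a transgene for DNMT1 without catalytic activity, driven by the CAG promoter and selected with zeocin. Transgenic clones were grown separately, and the columns of this line carry a number that the sources used here do not explain. Day 0 cells were kept undifferentiated with serum and LIF on feeders. For days 2 and 4, feeders were first removed by letting them attach to a gelatin-coated dish, and the ESCs that did not attach formed embryoid bodies in LIF-free medium for 1 day before they were plated. The sources used here do not say whether the day 0 RNA was taken before or after feeders were removed, and the RNA of any feeders left would be part of each library.

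Feeder fibroblasts give ESCs a surface of extracellular matrix and secreted factors, and being growth-arrested they are lost from a culture that is passaged without them. *Col1a1* and *Col1a2* encode the chains of type I collagen, the main fibre of connective tissue, and *Col3a1* encodes the chain of type III collagen, which forms thinner fibres with it. The chains fold in the endoplasmic reticulum, are secreted, trimmed and then crosslinked outside the cell. *Thy1* encodes the surface glycoprotein CD90, which fibroblasts carry but which T cells, neurons and some stem cells carry as well. *Mmp2* encodes gelatinase A, a secreted enzyme that cuts denatured collagen and basement membrane collagen, and it is made by fibroblasts and by several embryonic cell types.

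The genes lie on different chromosomes (GENCODE M21 annotation of GRCm38). *Col1a1* lies at chr11:94936224-94953042 with 51 exons, *Col1a2* at chr6:4504814-4541544 with 52 exons and *Col3a1* at chr1:45311538-45349706 with 51 exons. *Thy1* lies at chr9:44043384-44048579 with 4 exons and *Mmp2* at chr8:92827291-92853420 with 13 exons. All 5 are on the plus strand, and the exon numbers are those of a reference transcript. For *Col1a2* and *Col3a1*, which encode partner collagens and fell together after day 0, the RefSeq promoter table (GRCm38.p6) held the 250 bases before its own transcription start, which is the GENCODE start for *Col3a1* and lies 804 bases downstream of the GENCODE gene start for *Col1a2*. They are printed here with the letter matches to a CCAAT box, a TATA box (TATAAA) and a GC box (GGGCGG) in capitals. Whether these matches act in the promoters was not tested.
*Col1a2*, chr6:4505368-4505617, plus strand: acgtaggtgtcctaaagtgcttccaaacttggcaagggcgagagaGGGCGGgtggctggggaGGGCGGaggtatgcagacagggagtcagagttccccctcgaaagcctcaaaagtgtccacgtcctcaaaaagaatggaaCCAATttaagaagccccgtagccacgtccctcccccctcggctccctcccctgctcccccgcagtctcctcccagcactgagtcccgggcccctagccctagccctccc
*Col3a1*, chr1:45311288-45311537, plus strand: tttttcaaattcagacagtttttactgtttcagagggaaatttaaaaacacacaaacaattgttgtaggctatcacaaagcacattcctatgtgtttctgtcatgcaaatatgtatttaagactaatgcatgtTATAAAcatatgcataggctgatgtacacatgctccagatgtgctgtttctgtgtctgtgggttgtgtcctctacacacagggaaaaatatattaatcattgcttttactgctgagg
Both strands were searched for the 3 motifs. The *Col1a2* window held CCAAT from 109 to 105 bases before the start and GGGCGG from 205 to 200 and from 188 to 183 bases before it. The *Col3a1* window held TATAAA from 117 to 112 bases before the start and neither of the other motifs. Among 32851 promoter windows of that length, 33.8% held CCAAT, 12.4% held TATAAA and 32.7% held GGGCGG, so each motif is common and none is shared by the pair.

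The depth of the libraries, recovered from the steps in the FPKM values, ran from 20100000 to 28000000 counted units. *Dnmt1*, the targeted gene, read 48.5 to 80.4 FPKM for WT, 12.3 to 17.4 FPKM for 1KO and 129 to 315 FPKM for 1KO+1CI libraries, and so was lowest in the knockout as labelled. No condition had a replicate, so a difference between single libraries has no test, and the 95% intervals given beside such differences cover counting error only. Line and day effects were tested with limma on log2(FPKM + 1) in an additive fit over all 9 libraries. In this fit the departure of each library from the sum of its line and day effects is the error, with 4 residual degrees of freedom. Limma then drew the error of each gene toward a trend with level over all genes. The SE and p-values rest on this moderated error and on more than these 4 degrees of freedom. The 3 libraries of a day differ in line and the 3 libraries of a line differ in day, so these p-values do not measure the spread between cultures of 1 condition. Of the genes, 13288 reached 1 FPKM in a library and were tested.

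The collagen genes were high at day 0 and low at days 2 and 4 in all 3 lines. *Col1a1* read 39.0 FPKM for WT, 76.0 for 1KO and 74.4 for 1KO+1CI cells at day 0. At day 2 it read 4.17, 5.63 and 9.41 FPKM and at day 4 it read 5.07, 3.76 and 9.86 FPKM in the same lines. Within WT the fall to day 2 was 9.34-fold (95% interval 8.58 to 10.2), within 1KO 13.5-fold (12.5 to 14.6) and within 1KO+1CI 7.90-fold (7.44 to 8.40). *Col1a2* read 25.2, 43.2 and 50.8 FPKM at day 0, 2.20, 3.88 and 5.79 at day 2, and 1.85, 3.05 and 6.52 at day 4 in WT, 1KO and 1KO+1CI cells. It fell 11.4-fold (10.1 to 13.0) for WT, 11.1-fold (10.1 to 12.3) for 1KO and 8.77-fold (8.09 to 9.51) for 1KO+1CI cells by day 2. *Col3a1* fell furthest. It read 13.1, 28.4 and 38.0 FPKM at day 0, 0.364, 0.663 and 1.11 at day 2, and 1.55, 0.784 and 1.29 at day 4 in WT, 1KO and 1KO+1CI cells. The fall of *Col3a1* by day 2 was 35.9-fold (27.0 to 48.8) for WT, 42.8-fold (34.2 to 54.4) for 1KO and 34.3-fold (28.8 to 41.1) for 1KO+1CI cells. In bulk RNA, fewer cells of a type and less RNA per cell cannot be told apart.

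**Figure D1:**
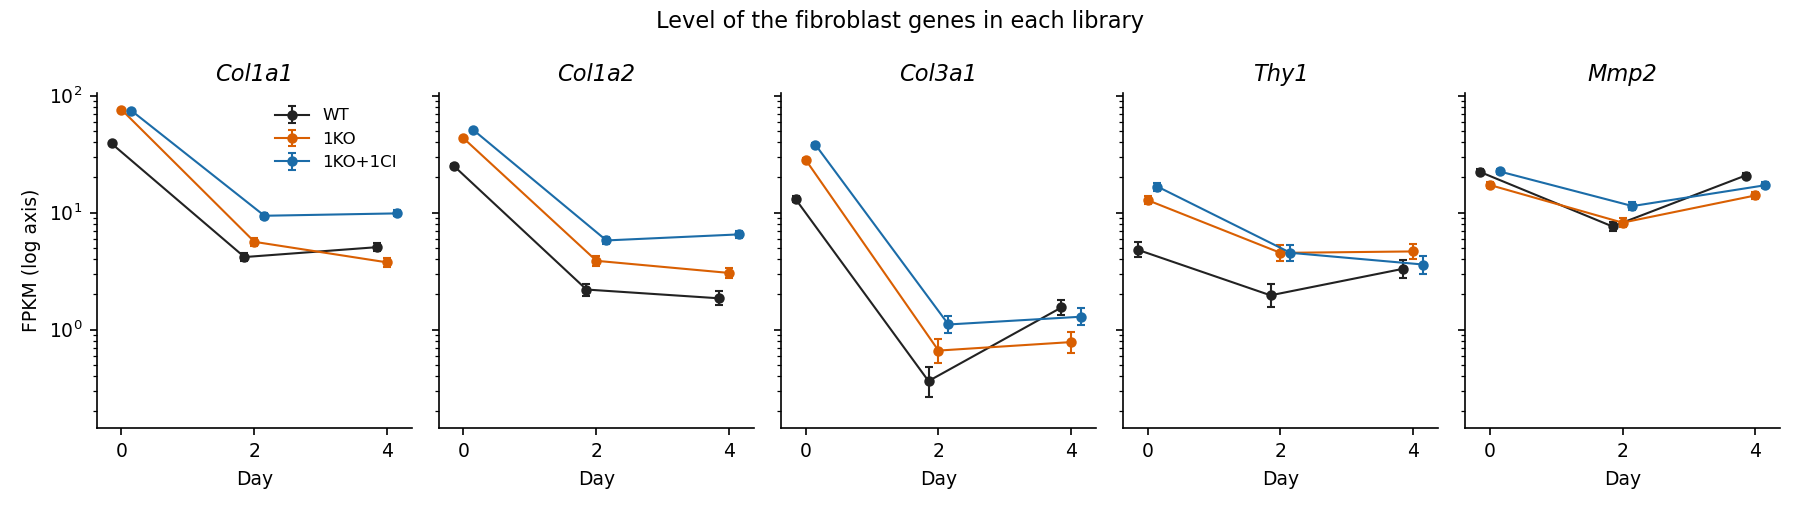
Level of the 5 genes in each of the 9 libraries, in FPKM on a log axis against the day, with 1 line of points for each cell line and bars for the 95% counting interval. *Col1a1*, *Col1a2* and *Col3a1* are high at day 0 in every line and low later, *Thy1* falls less, and *Mmp2* at day 4 reads 14.0 to 20.8 FPKM against 17.3 to 22.5 FPKM at day 0.

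*Thy1* and *Mmp2* started from levels below *Col1a1* and fell less. *Thy1* read 4.82, 12.8 and 16.7 FPKM in WT, 1KO and 1KO+1CI cells at day 0, 1.97, 4.53 and 4.54 at day 2, and 3.32, 4.66 and 3.60 at day 4. The WT level at day 0 was near the 1KO level at day 4. The fall from day 0 to day 2 was 2.45-fold (1.88 to 3.23) for WT, 2.82-fold (2.37 to 3.37) for 1KO and 3.68-fold (3.10 to 4.38) for 1KO+1CI cells. *Mmp2* read 22.4, 17.3 and 22.5 FPKM at day 0, 7.62, 8.21 and 11.4 at day 2, and 20.8, 14.0 and 17.2 at day 4. It was lowest at day 2 in every line and was higher again at day 4, where the WT level overlapped with the range at day 0. The rise of *Mmp2* from day 2 to day 4 was 2.72-fold (2.47 to 3.01) for WT, 1.71-fold (1.54 to 1.90) for 1KO and 1.51-fold (1.37 to 1.66) for 1KO+1CI cells.

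In the additive fit, all 5 genes fell from day 0 to day 2, and each was lower in 3 of 3 lines. Of all genes tested, 8.83% were lower at an adjusted p under 0.05 in that contrast. On the log2(FPKM + 1) scale, which understates the change of genes near 1 FPKM, *Col3a1* fell by 3.91 ± 0.29 (SE, limma adjusted p = 0.000402). *Col1a1* fell by 3.11 ± 0.23 (limma adjusted p = 0.000402) and *Col1a2* fell by 3.05 ± 0.14 (limma adjusted p = 9e-05). *Thy1* fell by 1.32 ± 0.24 (limma adjusted p = 0.0104) and *Mmp2* fell by 1.12 ± 0.15 (limma adjusted p = 0.00364). The median over the 5 genes was −3.05, beside 0.02 over all genes tested. Without the 1KO libraries the falls of *Thy1* and *Mmp2* were of like size but not past the threshold (limma adjusted p = 0.125 and 0.0683), and without the 1KO+1CI libraries *Thy1* was not past it either (limma adjusted p = 0.0621). The falls of the 3 collagen genes passed it with any 1 of the lines left out.

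From day 0 to day 4, 4 of the 5 genes fell, beside 13.3% of all genes tested that were lower in that contrast. *Col3a1* fell by 3.53 ± 0.29 (limma adjusted p = 0.000257), *Col1a1* fell by 3.18 ± 0.23 (limma adjusted p = 0.000155), *Col1a2* fell by 3.14 ± 0.14 (limma adjusted p = 3.94e-05) and *Thy1* fell by 1.22 ± 0.24 (limma adjusted p = 0.00912). *Thy1* did not pass the threshold without the 1KO libraries (limma adjusted p = 0.111) or without the 1KO+1CI libraries (limma adjusted p = 0.0827). *Mmp2* differed by −0.25 ± 0.15 between days 4 and 0 (limma adjusted p = 0.255). Between days 2 and 4 *Mmp2* rose by 0.87 ± 0.15 (limma adjusted p = 0.00645) in 3 of 3 lines, beside 12.5% of all genes tested that were higher. That call did not hold without the 1KO libraries (0.94, limma adjusted p = 0.0835). The other 4 genes differed by between −0.10 and 0.37 from day 2 to day 4, with limma adjusted p from 0.357 to 0.859.

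The 5 genes together made up 0.0254% of the summed FPKM of the WT library, 0.0419% of 1KO and 0.04997% of 1KO+1CI at day 0. At day 2 the shares were 0.00417%, 0.00584% and 0.00822%, and at day 4 they were 0.00745%, 0.00627% and 0.00952%. The small rise from day 2 to day 4 in each line was mostly *Mmp2*, since the 3 collagen genes alone held 0.00172% at day 2 and 0.00194% at day 4 for WT, 0.00259% and 0.00181% for 1KO and 0.00416% and 0.00438% for 1KO+1CI. The collagen share at day 0 was 0.0188% for WT, 0.0348% for 1KO and 0.0403% for 1KO+1CI.

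The ratio of each gene to *Col1a1* in the same library shows which of them kept step. *Col1a2* varied least, with 0.365 to 0.813 FPKM per FPKM of *Col1a1*, a 2.23-fold range. *Col3a1* stood at 0.336 to 0.511 of *Col1a1* at day 0 but at 0.0872 to 0.118 at day 2, and at 0.305 (0.257 to 0.361) for WT, 0.209 (0.166 to 0.260) for 1KO and 0.131 (0.109 to 0.156) for 1KO+1CI cells at day 4. The day 0 and day 2 intervals did not overlap in any line. *Thy1* ranged from 0.124 of *Col1a1* in WT at day 0 to 1.24 in 1KO at day 4, a 10.0-fold range. *Mmp2* ranged from 0.227 in 1KO at day 0 to 4.09 in WT at day 4, an 18.01-fold range, and its ratio was lowest at day 0 and highest at day 4 in each line. *Mmp2* at day 4 was thus near its day 0 level in libraries that were low in type I collagen, and the 5 genes did not move as a single measure of feeder RNA.

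**Figure D2:**
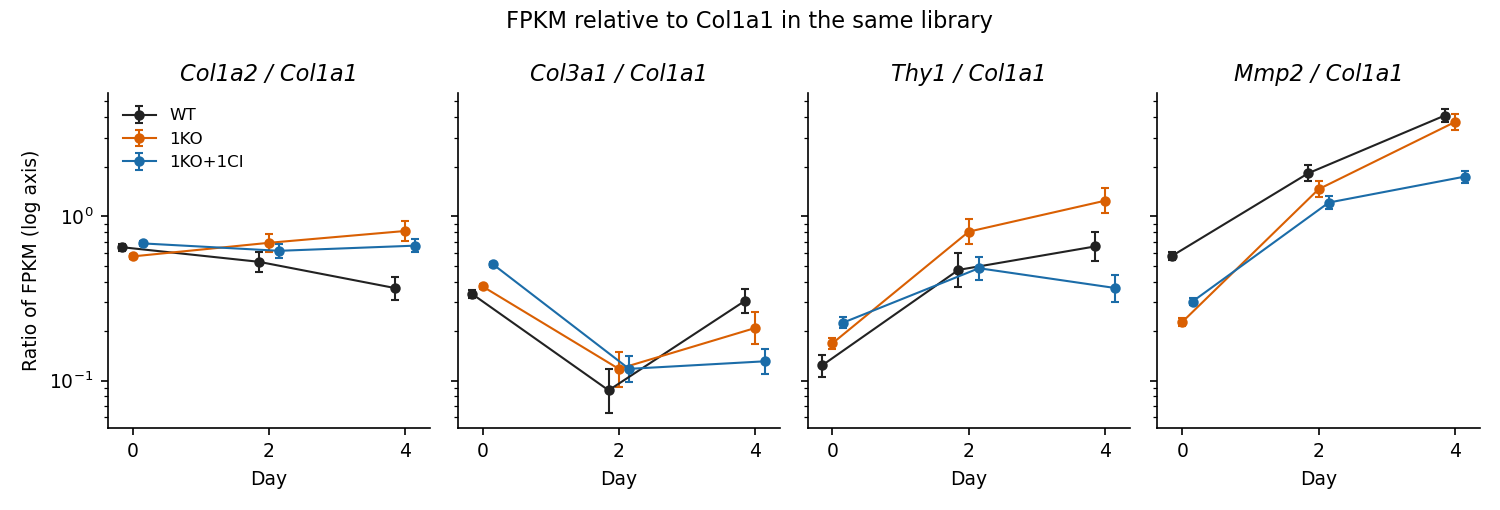
FPKM of *Col1a2*, *Col3a1*, *Thy1* and *Mmp2* divided by the FPKM of *Col1a1* in the same library, on a log axis against the day, with 95% counting intervals and a line of points for each cell line. *Col1a2* stays between 0.365 and 0.813, *Col3a1* dips at day 2, and *Mmp2* climbs from 0.227 to 0.573 at day 0 to 1.74 to 4.09 at day 4.

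Across the 9 libraries the log2(FPKM + 1) values of *Col1a1* and *Col1a2* correlated with r = 0.99, and those of *Col1a1* and *Col3a1* with r = 0.98. These values describe libraries that share lines and days. Over the 6 libraries of days 2 and 4, r was 0.86 for *Col1a1* with *Col1a2*, 0.53 for *Col1a1* with *Col3a1*, 0.29 for *Col1a1* with *Thy1* and 0.22 for *Col1a1* with *Mmp2*. The pair with the highest r over these 6 libraries was *Col3a1* and *Mmp2* (r = 0.90), which had 0.69 over all 9.

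At day 0 the libraries of both mutant lines had more *Col1a1*, *Col1a2*, *Col3a1* and *Thy1* RNA than the WT library, whereas *Mmp2* was at or below the WT level. Whether this RNA came from ESCs or from feeders was not tested. In single libraries, *Col1a1* was 1.95 times (95% interval 1.88 to 2.01), *Col1a2* 1.71 times (1.64 to 1.79) and *Col3a1* 2.17 times (2.05 to 2.30) the WT level in 1KO cells. *Thy1* was 2.65 times (2.24 to 3.16) and *Mmp2* 0.772 times (0.717 to 0.831) the WT level. Thus 4 of 5 genes were over 0.5 higher in log2(FPKM + 1), where 11.1% of all genes tested were. In 1KO+1CI cells the levels at day 0 were 1.91 times WT for *Col1a1* (1.84 to 1.97), 2.01 times for *Col1a2* (1.92 to 2.10), 2.90 times for *Col3a1* (2.74 to 3.08), 3.46 times for *Thy1* (2.92 to 4.11) and 1.01 times for *Mmp2* (0.937 to 1.08). Again 4 of 5 were over 0.5 higher, beside 10.7% of all genes tested. At day 0 the 1KO+1CI to 1KO ratios ran from 0.979 for *Col1a1* (0.954 to 1.00) to 1.34 for *Col3a1* (1.28 to 1.39), and none of the 5 genes passed 0.5, beside 2.69% of all genes tested.

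All 5 genes at day 2 exceeded WT by over 0.5 in 1KO+1CI cells, beside 10.2% of all genes tested. The ratios ran from 1.49 for *Mmp2* (1.34 to 1.67) to 3.04 for *Col3a1* (2.18 to 4.32). In 1KO cells 2 of 5 genes were over 0.5 higher than in WT, beside 7.87% of all genes tested, namely *Col1a2* at 1.76 times (1.51 to 2.05) and *Thy1* at 2.30 times (1.76 to 3.04). *Col3a1* was at 1.82 times the WT level (1.26 to 2.66) but, being under 1 FPKM, differed by 0.29 on that scale. At day 4 the lines no longer stood in the same order for the 5 genes. *Col1a1* in 1KO cells was 0.740 times the WT level (0.657 to 0.834) and *Col3a1* 0.506 times (0.392 to 0.651), whereas *Col1a2* was 1.65 times the WT level (1.39 to 1.96). In 1KO+1CI cells at day 4 *Col1a1* was 1.94 times (1.76 to 2.14) and *Col1a2* 3.52 times (3.01 to 4.13) the WT level, and *Col3a1* was 0.833 times (0.665 to 1.04). *Mmp2* was below WT in both lines at day 4, at 0.676 times (0.622 to 0.735) in 1KO and 0.827 times (0.762 to 0.897) in 1KO+1CI cells.

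**Figure D3:**
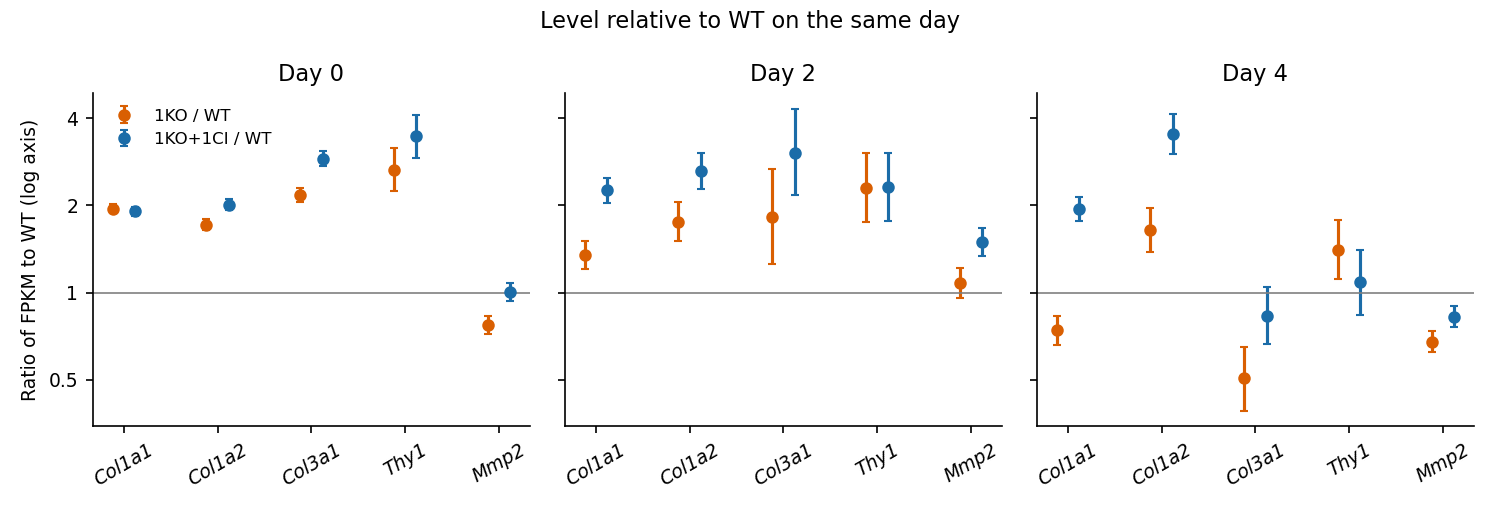
FPKM of the 5 genes in 1KO and 1KO+1CI libraries divided by the FPKM of the WT library of the same day, on a log axis, with 95% counting intervals and a horizontal line at equality. At day 0 the collagen genes and *Thy1* lie between 1.71 and 3.46 in both lines and *Mmp2* at 0.772 and 1.01, and at day 4 the genes spread from 0.506 to 3.52.

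Tested over the 3 days, 1 of the 5 genes differed between 1KO+1CI and WT, beside 2.13% of all genes tested that were higher in that contrast. *Col1a2* was higher by 1.15 ± 0.14 (limma adjusted p = 0.00716), in 3 of 3 days. Without the day 0 libraries the difference was 1.24 (limma adjusted p = 0.0519), and without the day 2 libraries 1.19 (limma adjusted p = 0.103). *Col1a1* differed by 0.92 ± 0.23 (limma adjusted p = 0.0577) and *Thy1* by 0.87 ± 0.24 (limma adjusted p = 0.0824), and each was higher in 3 of 3 days. *Col3a1* differed by 0.65 ± 0.29 (limma adjusted p = 0.239) and *Mmp2* by 0.09 ± 0.15 (limma adjusted p = 0.787). With each library rescaled to a common sum, *Col1a1* passed the threshold too (1.02, limma adjusted p = 0.0441). Between 1KO and WT, 0 of the 5 genes passed the adjusted threshold, beside 2.51% of all genes tested. At an unadjusted limma p under 0.05 there were 2 of the 5, beside 15.5% of all genes tested. *Thy1* differed by 0.84 ± 0.24 (limma adjusted p = 0.132) and *Col1a2* by 0.62 ± 0.14 (limma adjusted p = 0.0636), each higher in 3 of 3 days. *Col1a1* (0.32 ± 0.23), *Col3a1* (0.28 ± 0.29) and *Mmp2* (−0.26 ± 0.15) had limma adjusted p from 0.46 to 0.707, and each had 1 day in the opposite direction. Between 1KO+1CI and 1KO, 0 of the 5 passed, beside 0.00753% of all genes tested, which is *Dnmt1* alone (3.61, limma adjusted p = 0.00751). In that contrast 3 of the 5 genes and 491 of all genes tested (3.7%) had an unadjusted limma p under 0.05, and the differences ran from 0.02 for *Thy1* to 0.60 for *Col1a1*.

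Other collagens fell with the 3 collagen genes after day 0. Of 11 further collagens of the fibrillar, fibril-associated and type VI groups, all of which are in the table, 9 were tested and 7 fell from day 0 to day 2, with none higher. Their median difference was −1.89, and 8.83% of all genes tested were lower at day 2. Of the 9, 2 reached 1 FPKM only in day 0 libraries, and 8 of all 11 were lower without a filter on low values and 2 of 3 with 1 FPKM asked of every library. *Col6a1*, a chain of the beaded type VI collagen, had the deepest fall of these and fell by 2.46 ± 0.19 (limma adjusted p = 0.000474), from 6.78, 12.7 and 21.5 FPKM in WT, 1KO and 1KO+1CI cells at day 0 to 0.780, 1.11 and 2.86 FPKM at day 2. *Col5a2*, which encodes a chain of type V collagen that type I fibrils contain, had the highest single level of them, at 9.06, 28.7 and 32.4 FPKM at day 0, where *Col5a1* was above it in WT (14.2 FPKM), and fell by 2.12 ± 0.16 (limma adjusted p = 0.000406). *Col2a1*, the collagen of cartilage and notochord, had the smallest difference, −0.33 ± 0.28 (limma adjusted p = 0.438), and rose by day 4, by 1.05 ± 0.28 against day 0 (limma adjusted p = 0.0271). The rise differed by line. *Col2a1* read 5.77, 1.79 and 1.785 FPKM in WT, 1KO and 1KO+1CI cells at day 0 and 6.76, 4.94 and 9.05 FPKM at day 4. The other 8 tested collagens were lower at day 4 than at day 0, beside 13.3% of all genes tested. The count that fell by day 2 was 3 without the 1KO libraries and 5 without the 1KO+1CI libraries, and *Col2a1* did not pass at day 4 without either. Of all 13288 genes tested, 53 and 222 were lower at day 2 in these fits.

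Enzymes and chaperones that fold, trim and crosslink collagen changed less as a group. Of 18 in the table, 11 were lower at day 2 than at day 0, beside 8.83% of all genes tested. None was higher, and the median was −0.79. With 1 FPKM asked of every library, 8 of 14 were lower. The count of 11 was 2 without the 1KO libraries and 6 without the 1KO+1CI libraries, beside 53 and 222 of the 13288 genes tested. *Lox*, lysyl oxidase, which crosslinks secreted collagen, fell by 2.86 ± 0.20 (limma adjusted p = 0.000378), from 16.0, 43.9 and 58.6 FPKM in WT, 1KO and 1KO+1CI cells to 2.31, 4.00 and 6.15 FPKM. *P3h1*, a prolyl 3-hydroxylase of the endoplasmic reticulum, differed by 0.06 ± 0.14 (limma adjusted p = 0.789). *Serpinh1*, the collagen chaperone HSP47, read 32.2 to 50.8 FPKM at day 2 and was higher at day 4 than at day 0 in 1KO and 1KO+1CI cells (100 and 137 FPKM against 77.8 and 62.9 FPKM) but lower in WT cells (56.7 against 79.3 FPKM). Its difference from day 0 to day 4 was 0.33 ± 0.25 (limma adjusted p = 0.349).

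Partners of *Mmp2* divided in a like way. Of 8 genes for its activation or inhibition, 6 were tested. At day 2, 4 were lower than at day 0, beside 8.83% of all genes tested, and the median difference was −0.92. *Timp3*, a matrix-bound inhibitor, fell by 2.25 ± 0.23 (limma adjusted p = 0.00117), and *Timp2*, the inhibitor that also docks the proenzyme at the cell surface, fell by 1.76 ± 0.27 (limma adjusted p = 0.00526). *Mmp14*, the membrane-bound protease that activates pro-MMP2, read 22.9, 13.7 and 19.8 FPKM for WT, 36.0, 19.6 and 24.1 for 1KO and 38.9, 21.2 and 30.3 for 1KO+1CI cells at days 0, 2 and 4. It was lowest at day 2 in each line, like *Mmp2*, falling by 0.80 ± 0.10 (limma adjusted p = 0.00275) and then rising by 0.43 ± 0.10 (limma adjusted p = 0.0193). Without the 1KO or without the 1KO+1CI libraries, 1 of the 6 genes was lower at day 2 and none rose from day 2 to day 4. Of all 13288 genes tested, 53 and 222 were then lower at day 2, and 39 and 581 rose from day 2 to day 4. *Timp2* differed by −0.40 ± 0.27 from day 2 to day 4 (limma adjusted p = 0.293).

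Of 24 other fibroblast genes, 21 are in the table and 20 were tested. At day 2, 17 of these were lower than at day 0, beside 8.83% of all genes tested. None was higher and the median was −1.39. Of the 20, 6 reached 1 FPKM only in day 0 libraries, and so entered the test through the day on which they were high. Without a filter on low values, 16 of all 21 were lower, and with 1 FPKM asked of every library 7 of 8 were. *Bgn*, the matrix proteoglycan biglycan, had the deepest fall of these and fell by 2.78 ± 0.17 (limma adjusted p = 0.00019), and was at 37.6, 100.8 and 151 FPKM in WT, 1KO and 1KO+1CI cells at day 0 and at 4.40, 11.7 and 25.7 FPKM at day 2. *Twist1*, a transcription factor of mesenchyme, differed least, by −0.26 ± 0.20 (limma adjusted p = 0.395). Without the 1KO libraries 5 of the 20 passed the threshold, and without the 1KO+1CI libraries 7 did, with medians of −1.28 and −1.21. Of all 13288 genes tested, 53 and 222 were lower in these fits. The summed level of the 21 genes was 170, 419 and 529 FPKM at day 0 and 50.8, 76.7 and 127 FPKM at day 2 in the same lines. Several genes of this list, among them *Twist1*, are also expressed by cells that leave the epiblast.

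**Figure D4:**
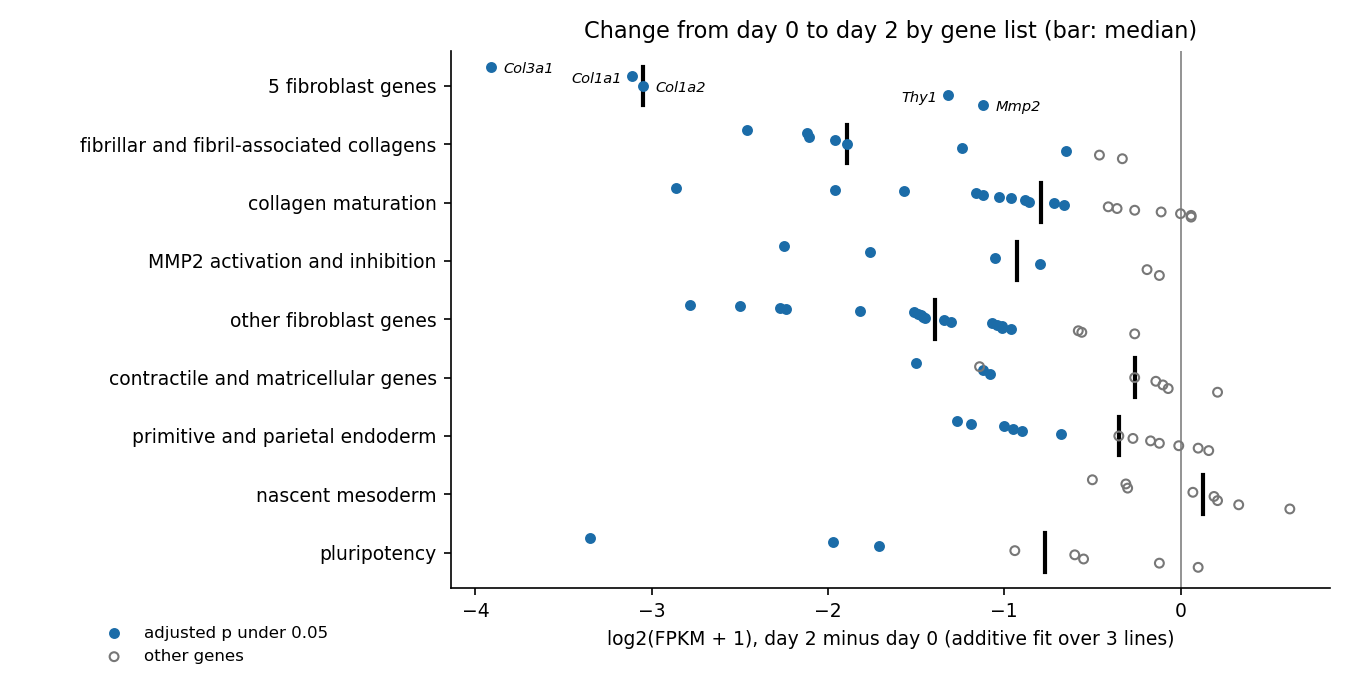
Difference in log2(FPKM + 1) from day 0 to day 2 in the additive fit for the genes of 9 lists, with filled points for genes at a limma adjusted p under 0.05, open points for the others and a bar at the median of each list. The 3 collagen genes lie at −3.91, −3.11 and −3.05, at or to the left of the median of every list shown, and *Thy1* (−1.32) and *Mmp2* (−1.12) lie among the other fibroblast genes.

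The difference between the lines at day 0 was seen across the fibroblast list as well. Of the 20 tested genes, 3 reached 1 FPKM only in mutant libraries of day 0, and so entered through the libraries in which they were high. The counts for day 0 are therefore given over all 21 genes in the table. In the 1KO library 16 of the 21 exceeded WT by over 0.5, beside 11.1% of all genes tested. The median difference was 1.10, beside 0.94 for the 5 genes and −0.01 for all genes tested. In the 1KO+1CI library 18 of the 21 exceeded WT by over 0.5, beside 10.7% of all genes tested, with a median of 1.48. Over the 8 genes with at least 1 FPKM in every library, the counts were 6 and 8 and the medians 1.27 and 1.63. At day 4 the median of the tested genes was 0.06 for 1KO and 0.62 for 1KO+1CI against WT, and that of the 5 genes was −0.35 and 0.09. Over the 3 days, 11 of the 20 rose above WT in 1KO+1CI cells and none was lower, beside 2.13% of all genes tested that were higher. The largest difference was that of *Bgn* (2.17 ± 0.17, limma adjusted p = 0.00143). The count was 8 of 21 without a filter on low values, and 5 of 8 with 1 FPKM asked of every library. The count of 11 became 3 without the day 0 libraries, 0 without those of day 2 and 5 without those of day 4. Over all genes tested, the 283 that were higher became 64, 4 and 122. For 1KO against WT, 3 of the 20 were higher, beside 116 of the 13288 genes tested. The count of 3 became 0 without day 0, 0 without day 2 and 1 without day 4, and the 116 became 12, 4 and 33. The excess over WT at day 0 was not confined to fibroblast genes. In the 1KO and 1KO+1CI libraries 2 and 3 of 8 pluripotency genes were over 0.5 higher, beside 11.1% and 10.7% of all genes tested. Their medians were 0.30 and 0.37. Of 6 tested MMP2 partners, 4 were over 0.5 higher and 1 over 0.5 lower in each mutant library. Each line had 1 library at day 0, so the number of feeder cells in the RNA and the genotype cannot be told apart.

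Markers of other cell types that could hold these transcripts were measured beside them. Of all 13288 genes tested, 1150 rose and 1173 fell from day 0 to day 2, and 1656 rose and 1763 fell from day 2 to day 4. Of 13 tested genes of primitive and parietal endoderm, cells that make basement membrane, 6 fell from day 0 to day 2, and 6 rose from day 2 to day 4 with none lower. Their summed level over 14 genes was 288, 372 and 397 FPKM at day 0 in WT, 1KO and 1KO+1CI cells, 187, 196 and 254 FPKM at day 2, and 211, 262 and 438 FPKM at day 4. *Sparc*, a matrix gene, made up 135, 201 and 204 FPKM of the day 0 sums. The transcription factors *Gata4*, *Gata6*, *Sox17*, *Sox7* and *Foxa2* read at most 1.84 FPKM each at day 0, and none of them was among the 6 that fell. Of 8 genes of nascent mesoderm, none changed from day 0 to day 2 and 5 rose from day 2 to day 4, most of all *T* (3.30), which was at 2.07 FPKM in WT and at 29.2 and 27.2 FPKM in 1KO and 1KO+1CI cells at day 4. Of 9 contractile and matricellular genes, which fibroblasts share with smooth muscle, 3 fell by day 2 and 5 rose from day 2 to day 4. Their sum in WT, 1KO and 1KO+1CI cells was 403, 541 and 574 FPKM at day 0 and 447, 459 and 1004 FPKM at day 4. *Pou5f1*, expressed by ESCs and not by fibroblasts, read 632 to 1008 FPKM in all 9 libraries, and *Klf4*, which both express, fell by 3.35 from day 0 to day 2, with 3 of 8 pluripotency genes lower and none higher. Of 13 homeobox and T-box genes of trunk fibroblasts, 3 are in the table and the highest, *Tbx15*, reached 1.48 FPKM. Of endothelial and blood markers, 3 of 6 are in the table, and *Cdh5* and *Tie1*, which mark endothelium, read at most 0.498 and 0.319 FPKM. *Pecam1*, which marks endothelium but is also expressed by ESCs, was the only gene of the list that was tested, and read 20.8, 16.8 and 18.7 FPKM at day 0, 28.6, 13.2 and 11.3 FPKM at day 2 and 2.47, 1.40 and 0.980 FPKM at day 4 for WT, 1KO and 1KO+1CI. It differed by −0.19 ± 0.20 from day 0 to day 2 (limma adjusted p = 0.541) and fell by 2.95 ± 0.20 by day 4 (limma adjusted p = 0.000121). *Serpinh1*, *Mmp14*, *Cdh5*, *Tie1*, *Pecam1* and the endoderm transcription factors are named here after their values were seen. Of 6 neural genes 5 were tested, and 1 rose and 1 fell from day 0 to day 2. *Xist*, which is transcribed from the inactive X chromosome of female cells, read 0.572, 0.877 and 1.25 FPKM at day 0, 0.819, 0.455 and 0.610 FPKM at day 2 and 0.306, 0.336 and 0.280 FPKM at day 4 for WT, 1KO and 1KO+1CI. It was thus lower at day 2 in both mutant lines and higher in WT, and lower at day 4 in all 3. On the log2(FPKM + 1) scale, which understates changes at this level, it differed by −0.21 ± 0.17 from day 0 to day 2 (limma adjusted p = 0.42) and by −0.52 ± 0.17 from day 0 to day 4 (limma adjusted p = 0.0562). Without the 1KO libraries none of the endoderm, mesoderm and contractile genes fell by day 2, and of those that rose from day 2 to day 4 none was left among the endoderm and mesoderm genes and 2 were left among the contractile genes. Without the 1KO+1CI libraries the counts that rose were 1, 1 and 3. Of all 13288 genes tested, 53 fell by day 2 without the 1KO libraries. From day 2 to day 4, 39 rose without the 1KO libraries and 581 without the 1KO+1CI libraries. The part of any of these cell types in the levels of the 5 genes was not tested.

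The 10 genes whose log2(FPKM + 1) followed the mean of the 5 genes most closely over the 9 libraries were *Col8a1* (r = 0.994), *Synpo* (0.987), *Aldh1a1* (0.986), *Dkk3* (0.984), *Loxl1* (0.982), *Bnc1* (0.981), *Pdgfrb* (0.979), *Mgll* (0.977), *Timp3* (0.976) and *Cpq* (0.976). *Col8a1*, a short-chain collagen, read 4.77, 11.3 and 13.6 FPKM in WT, 1KO and 1KO+1CI cells at day 0 and 0.289 to 0.910 FPKM in the 6 later libraries. *Timp3* was the most abundant of them, at 18.3, 42.4 and 53.9 FPKM at day 0 and 5.29 to 11.8 FPKM later. All 10 had their 3 highest libraries at day 0. They were picked for likeness to a mean that was itself high at day 0, so this adds no support. The order rests on the choice of measure, since 1 of the 10 genes was also among the 10 by rank correlation and 5 of the 10 were so with a pseudocount of 0.1.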

How the data were processed

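RNA-seq was available as 9 libraries, 1 for each of 3 lines at days 0, 2 and 4, and the labels gave no batch. The deposited gene values are FPKM, which the authors made by trimming reads with Trim Galore, mapping them to mm10 with HISAT2, handling files with SAMtools and counting and normalizing with analyzeRepeats.pl of HOMER. Their versions, the annotation, and how strand and multiply aligned reads were treated were not given in the sources used here. RNA was extracted with an RNeasy kit, enriched for polyadenylated RNA and sequenced as read pairs. A table of repeat copies was not used here. Of 15095 entries of the gene table, 21 were left out because they held a date (20) or a 0 (1) in place of a gene symbol (at most 0.117% of the summed FPKM), and no value was 0.

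The 5 genes and the lists of other genes were chosen with earlier results of these data known, so their patterns are not independent support. Depth was recovered from 7703 genes with 1 RefSeq transcript length, whose low FPKM values fall on whole multiples of a step. Per library 68.5% to 72.2% of genes with at most 25 steps lay within 0.15 of a whole number, so the step counts are approximate and no count test was run. Whether a step is a read or a pair is unknown. Intervals of ratios are exact 95% binomial (Clopper-Pearson) intervals on these steps, and those of single levels are exact 95% Poisson intervals. Both cover counting error only.

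Line and day effects were fitted with limma (additive, trend) on log2(FPKM + 1) for the 13288 genes with at least 1 FPKM in a library, with Benjamini-Hochberg adjustment over all of them and a threshold of 0.05. Single libraries were compared by log2 difference, counted past 0.5. The genes named are the 5 genes, the 10 most correlated with their mean, *Xist* and *Dnmt1*, and some of the highest, lowest and most abundant genes of the lists, with exceptions marked. Not every such gene of a list is named. Lists covered other collagens, collagen maturation, MMP2 partners, other fibroblast genes, contractile genes, trunk homeobox genes, mesoderm, endoderm, pluripotency, endothelium and blood, neural genes, and X and Y genes. The fit was tested on simulated data with 13288 genes, where it recovered 67% of genes changed by 1 and 94% changed by 2 (log2) for 1KO against WT, and 68% and 95% for day 2 against day 0. Of the simulated calls 5.29% and 5.78% were false, with 200 genes changed per contrast. In the simulation the spread of each gene was drawn at random from those of all genes, so it was not tied to the level of the gene. The simulated noise was independent between libraries. Whether these rates hold for the measured libraries, where some line differences turned direction between days, was not tested. Alternatives were pseudocounts of 0.1 and 0.01, other filters on low values, rescaling to a common sum (TPM), median-ratio scaling (factors 0.982 to 1.02), limma without trend, the mean in place of the median, rank correlation, and each line or day left out. Computation was in R 4.3.3 (limma 3.58.1) and Python 3.11.15 (scipy 1.17.1, numpy 2.4.6, matplotlib 3.10.9, pandas 2.3.3). Gene positions came from GENCODE M21 and promoters from RefSeq (GRCm38.p6), where 2 of the 5 genes had an entry.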

Additional observations from a re-analysis of the deposited data

Results flagged for a closer look

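Some differences between single libraries turned direction between days or lines by more than their counting error. None of these turns was tested, since each condition had 1 library. *Col1a1* differed between 1KO and WT by 0.94 at day 0 and 0.36 at day 2 but by −0.35 at day 4 (log2(FPKM + 1)). *Col3a1* did so by 1.06 at day 0, 0.29 at day 2 and −0.51 at day 4. *Thy1* differed between 1KO+1CI and 1KO by 0.36 at day 0 and −0.30 at day 4. *Mmp2* differed between 1KO+1CI and WT by 0.52 at day 2 and −0.26 at day 4. From day 2 to day 4, the WT libraries differed by 0.23 for *Col1a1* and the 1KO libraries by −0.48. For *Col1a2* the 1KO libraries differed by −0.27 and the 1KO+1CI libraries by 0.15.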

How the results depend on the processing

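The additive fit already takes day differences within lines and line differences within days. No paired analysis was possible beyond it, because the labels number no replicates. No alternative reversed the direction of a called difference. With 1 library a condition and 4 residual degrees of freedom, counts of calls moved with the libraries used. Leaving out 1 line at a time, the genes past the threshold ran from 77 to 2911 for day 2 against day 0 (2323 with all libraries), from 638 to 4761 for day 4 against day 0 (3429) and from 151 to 3890 for day 4 against day 2 (3419), and the lowest count came without 1KO each time. Of the 5 genes, 3 to 5, 3 to 4 and 0 to 1 then passed. Leaving out 1 day at a time, 4 to 35 genes passed for 1KO against WT (334 with all), 4 to 209 for 1KO+1CI against WT (640) and 0 to 1 for 1KO+1CI against 1KO, and 0 to 1 of the 5 genes passed for 1KO+1CI against WT. Whether fewer samples or the library itself lowers a count was not tested. Rescaling to a common sum raised the number of the 5 genes past the threshold for 1KO+1CI against WT to 2. It also moved the split of higher to lower calls from 1150 and 1173 to 1641 and 961 for day 2 against day 0, from 1656 and 1763 to 1225 and 2487 for day 4 against day 2, and from 283 and 357 to 385 and 302 for 1KO+1CI against WT. The median single-library difference of the 5 genes from day 0 to day 2 was −2.95 for WT, −3.18 for 1KO and −2.86 for 1KO+1CI cells. It was −2.35, −2.63 and −2.52 as a mean, −3.19, −3.45 and −2.97 with a pseudocount of 0.1, and −3.22, −3.48 and −2.98 with 0.01. For 1KO against WT at day 0 the mean was 0.73 in place of a median of 0.94. Of the 10 genes most like the 5, 5 were shared with a pseudocount of 0.1 and 1 with rank correlation. With at least 1 FPKM asked of every library, *Col3a1* was not tested. Differences between lines at day 0 within counting error were not detectable at this depth.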

Other observations

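Some genes of the fibroblast and contractile lists kept to a later course than the collagen genes. *Mgp*, an inhibitor of matrix calcification, fell again from day 2 to day 4, by 1.94 ± 0.29 (limma adjusted p = 0.00392), from 2.41, 8.86 and 17.6 FPKM to 0.776, 0.721 and 2.59 FPKM in WT, 1KO and 1KO+1CI cells. *Cnn1*, which encodes the smooth muscle protein calponin, was at 10.7, 8.24 and 6.30 FPKM at day 0 and at 25.2, 21.2 and 53.1 FPKM at day 4 in the same lines, with a rise of 1.88 from day 2 to day 4. Of the Y-linked genes, *Ddx3y*, an RNA helicase gene, was higher in 1KO than in WT cells by 1.56 ± 0.11 (limma adjusted p = 0.00132), at 4.54, 7.28 and 3.84 FPKM in WT and 13.4, 25.3 and 14.1 FPKM in 1KO cells at days 0, 2 and 4. In 1KO+1CI cells it was higher than in WT by 1.62 ± 0.11 (limma adjusted p = 0.00127). Between 1KO and WT, *Eif2s3y* (0.40 ± 0.12, limma adjusted p = 0.144) and *Uty* (0.53 ± 0.12, limma adjusted p = 0.0673), also Y-linked, did not pass the threshold.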
